A study of Homo sapiens with 12 samples.

Results

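The 49 genes described here encode the machinery that copies DNA and the enzymes that supply it with deoxynucleotides. The set is defined by symbol and role, with no threshold on a measured value, but was drawn up with earlier results of these data known. It holds 49 of the 59276 gene symbols in the deposited table. They fall into 10 role classes, which are origin recognition (6 genes), licensing factors (3), the MCM2-7 helicase (6), helicase activation (8), polymerases and primase (9), clamp and clamp loader (6), Okazaki fragment maturation (2), single-strand binding (3), fork protection (2) and nucleotide supply (4).

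RNA of JJN3, a human multiple myeloma cell line, was sequenced in 12 samples, 3 in each of 4 groups. In the first pair of groups, JJN3 cells received the solvent DMSO or 10 uM MS023, an inhibitor of the type I protein arginine methyltransferases (PRMTs), for 3 days. In the second pair, JJN3 cells carried Cas9 with an mCherry reporter and, after puromycin selection, a doxycycline-inducible guide RNA, both delivered by lentivirus. The guide was either a control (isgCtrl) or directed against PRMT1 (PRMT1-KO, guide iPRMT1_1), and doxycycline was given for 3 days. Both members of the second pair therefore share Cas9, the guide vector, selection and doxycycline, and 1 guide stands for the knockout. The groups are cultures of 1 cell line, and, although the study's methods speak of independent experiments in general, the labels do not say whether these replicates were separate cultures. If they were not, p-values measure technical spread only. The question was how the loss of PRMT1 and the inhibition of type I PRMTs change the transcriptome of myeloma cells.

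Replication starts at origins marked by the origin recognition complex, where CDC6 and CDT1 load the MCM2-7 helicase in G1, and geminin (GMNN) restrains CDT1 afterwards. In S phase the kinase CDC7 with DBF4, then CDC45 and the GINS complex, turn the loaded helicase into an active one, and primase, polymerases, the PCNA clamp and its RFC loader, ligase and RPA copy both strands. Ribonucleotide reductase, thymidylate synthase and thymidine kinase supply deoxynucleotides, and many genes of this machinery are known targets of E2F factors that are expressed around the G1/S transition.

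The deposited values are log2(TPM+1), where TPM are abundances corrected for transcript length and scaled to a fixed total per sample, so levels of different genes can be set side by side in TPM. By the labels, each sample had more than 60000000 read pairs, but TPM carry no depth of their own, so the number of reads behind a single value is not known. In each sample, 20988 to 22241 genes were above 0. PRMT1 itself was at 867, 863 and 849 TPM in the isgCtrl samples and at 302, 309 and 301 TPM in the PRMT1-KO samples, which is -1.5 on the log2 scale (limma, Benjamini-Hochberg adjusted p = 7.2e-04). Transcripts from an edited gene are counted too, so this is a level of mRNA and not of protein. The 8 plasma cell markers, among them SDC1, TNFRSF17, IRF4 and XBP1, summed to 735 to 841 TPM in the DMSO, isgCtrl and PRMT1-KO samples and to 1207 to 1256 TPM with MS023. With MS023, XBP1, POU2AF1, SLAMF7 and PRDM1 rose, CD38 fell (-0.88), and SDC1, IRF4 and TNFRSF17 were not called. SLAMF7 was under 1 TPM on average in isgCtrl and PRMT1-KO. The 5 T cell markers summed to at most 1.25 TPM, with CD3G listed at 0 throughout, and the 5 myeloid markers to at most 3.09 TPM in any sample. The 5 stromal and endothelial markers summed to 2.60 to 4.61 TPM in DMSO, 8.70 to 11.7 TPM with MS023, 1.13 to 12.3 TPM in isgCtrl and 0.316 to 2.06 TPM in PRMT1-KO. PECAM1 (1.54) and COL1A1 (0.68) among them rose with MS023, and their part in the results below was not tested.

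All fold changes below are differences of mean log2(TPM+1), a scale that makes changes of low genes smaller. A gene was called when limma gave a Benjamini-Hochberg adjusted p under 0.05 over all genes tested and its absolute log2 fold change was above 0.48. In the counts below, genes that fell or rose are those called lower or higher. For a single gene, the smallest p that a two-sided exact permutation test can give here is 0.1. Bulk RNA does not tell fewer cells in S phase from less RNA per cell. By flow cytometry, the study reports fewer S-phase cells in myeloma lines both after PRMT1 knockout and with MS023. The part of this in the values below was not tested.

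Promoters are shown first, because E2F letters are common among the members and because the largest and the smallest changes can then be read beside their sequence. The windows run from 200 bases before the RefSeq transcription start to 20 bases from it, 5' to 3' on the strand of the gene, in build GRCh38.p14. PRIM1, LIG1 and RFC3 had the largest falls with MS023, and GINS3, CDT1 and RPA2 the smallest changes. Windows are at chr12:56752304-56752523 (minus strand) for PRIM1, chr19:48170325-48170544 (minus strand) for LIG1, chr13:33817949-33818168 (plus strand) for RFC3, chr16:58392271-58392490 (plus strand) for GINS3 and chr16:88803589-88803808 (plus strand) for CDT1. RPA2 is named only. Capitals mark the letters searched, which were TTTCCCGC, TTTCGCGC, TTTGCCGC and TTTGGCGC for E2F, TTTGAA and TTCGAA for the cell cycle homology region (CHR), and CCAAT, each on both strands.
PRIM1: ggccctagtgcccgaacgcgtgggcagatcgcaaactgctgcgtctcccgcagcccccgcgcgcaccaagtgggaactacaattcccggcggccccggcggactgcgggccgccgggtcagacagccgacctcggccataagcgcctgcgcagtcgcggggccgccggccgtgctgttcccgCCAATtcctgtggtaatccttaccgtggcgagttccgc
LIG1: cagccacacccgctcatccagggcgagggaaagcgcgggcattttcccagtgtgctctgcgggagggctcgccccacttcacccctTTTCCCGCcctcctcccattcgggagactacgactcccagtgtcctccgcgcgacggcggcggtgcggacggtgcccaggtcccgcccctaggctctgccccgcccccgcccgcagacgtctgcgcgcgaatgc
RFC3: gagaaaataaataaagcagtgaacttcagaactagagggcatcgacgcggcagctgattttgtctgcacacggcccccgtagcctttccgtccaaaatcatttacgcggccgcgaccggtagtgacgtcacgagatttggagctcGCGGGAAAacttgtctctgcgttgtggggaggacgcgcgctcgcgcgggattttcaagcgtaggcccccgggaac
GINS3: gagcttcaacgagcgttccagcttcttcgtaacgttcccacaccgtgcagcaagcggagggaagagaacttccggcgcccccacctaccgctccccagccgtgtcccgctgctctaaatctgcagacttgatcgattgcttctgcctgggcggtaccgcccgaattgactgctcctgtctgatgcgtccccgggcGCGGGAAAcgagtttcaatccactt
CDT1: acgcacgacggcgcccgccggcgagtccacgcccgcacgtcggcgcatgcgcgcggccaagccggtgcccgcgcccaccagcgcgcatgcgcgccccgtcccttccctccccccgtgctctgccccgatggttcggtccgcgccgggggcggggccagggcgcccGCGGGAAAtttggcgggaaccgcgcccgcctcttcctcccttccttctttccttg

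In RFC3, GINS3 and CDT1 the E2F letters read GCGGGAAA on the strand of the gene, which is the reverse complement of TTTCCCGC, and LIG1 held TTTCCCGC itself. Their first base lay 114 bases before the start in LIG1, 55 before it in RFC3, 35 before it in CDT1 and 5 before it in GINS3. PRIM1, with the largest fall, held none of the E2F letters, and a CCAAT box began 18 bases before its start. A pair of genes at each end of the range of change carried E2F letters.

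Of the 49 members, 43 had an entry among 35116 RefSeq promoters of 300 bases (250 before the start and 50 from it). E2F letters were found for 21 of these 43 members, or 48.8%, against 5.4% of 15842 protein-coding genes and 7.17% of the 9061 protein-coding genes that were tested with MS023. Counted by promoter and not by gene, 38.2% of the 55 member promoters and 3.31% of all promoters held them. CCAAT was found for 60.5% of members and 44% of tested protein-coding genes, and CHR letters for 6.98% and 15.6%. These shares describe letters in a window and not bound sites.

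**Figure D1:**
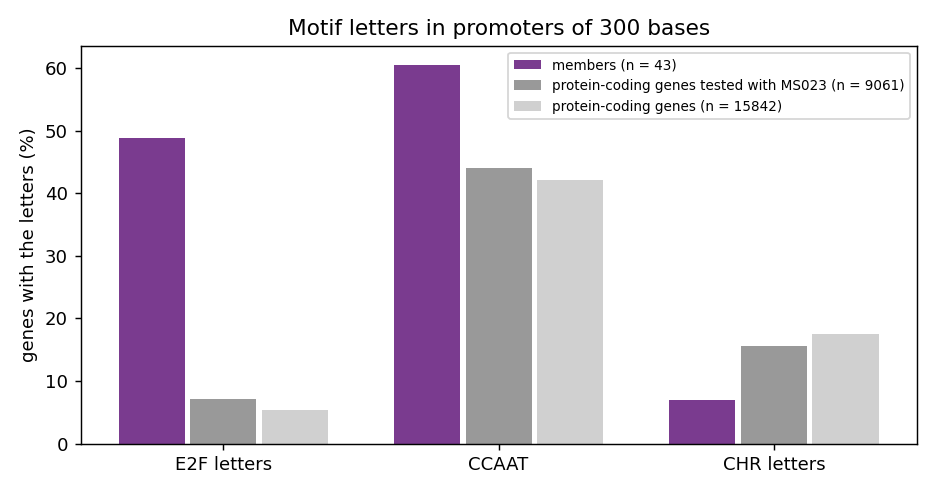
Share of genes (%) whose RefSeq promoter of 300 bases holds the E2F, CCAAT or CHR letters on either strand, for the 43 members with an entry, protein-coding genes tested with MS023 and all protein-coding genes. The E2F letters stand apart most, at 48.8% of members against 7.17% and 5.4%.

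Members with and without E2F letters had medians close to each other with MS023. The median log2 fold change was -0.93 for the 21 members with E2F letters, which ranged from -1.55 to -0.10, and -0.90 for the 22 without them, which ranged from -1.90 to -0.29. The ranges overlapped over most of their width.

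With MS023, 42 of the 49 members were called lower and 0 higher. Over all 12903 genes tested, 19.3% were called lower and 11.6% higher. All 49 members had a negative log2 fold change, from -1.90 for PRIM1 to -0.10 for GINS3, with a median of -0.89 against -0.11 over all genes tested. Of all 12903 genes tested, 7627 were negative. Under median-ratio scaling and under quantile normalization, 48 of the 49 members were negative. Every MS023 sample lay below every DMSO sample for 47 members, which holds for 36.3% of all genes tested, and the exceptions were MCM10 and GINS3. The summed TPM of the 49 members were 4334 to 4396 in DMSO and 2334 to 2473 with MS023. Since TPM are shares of a fixed total, the shift of all genes matters to this count: median-ratio scaling moved the median of all genes from -0.11 to 0.00, and the number of members called lower was then 39, with all-gene calls of 1882 lower and 2012 higher in place of 2486 and 1500.

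**Figure D2:**
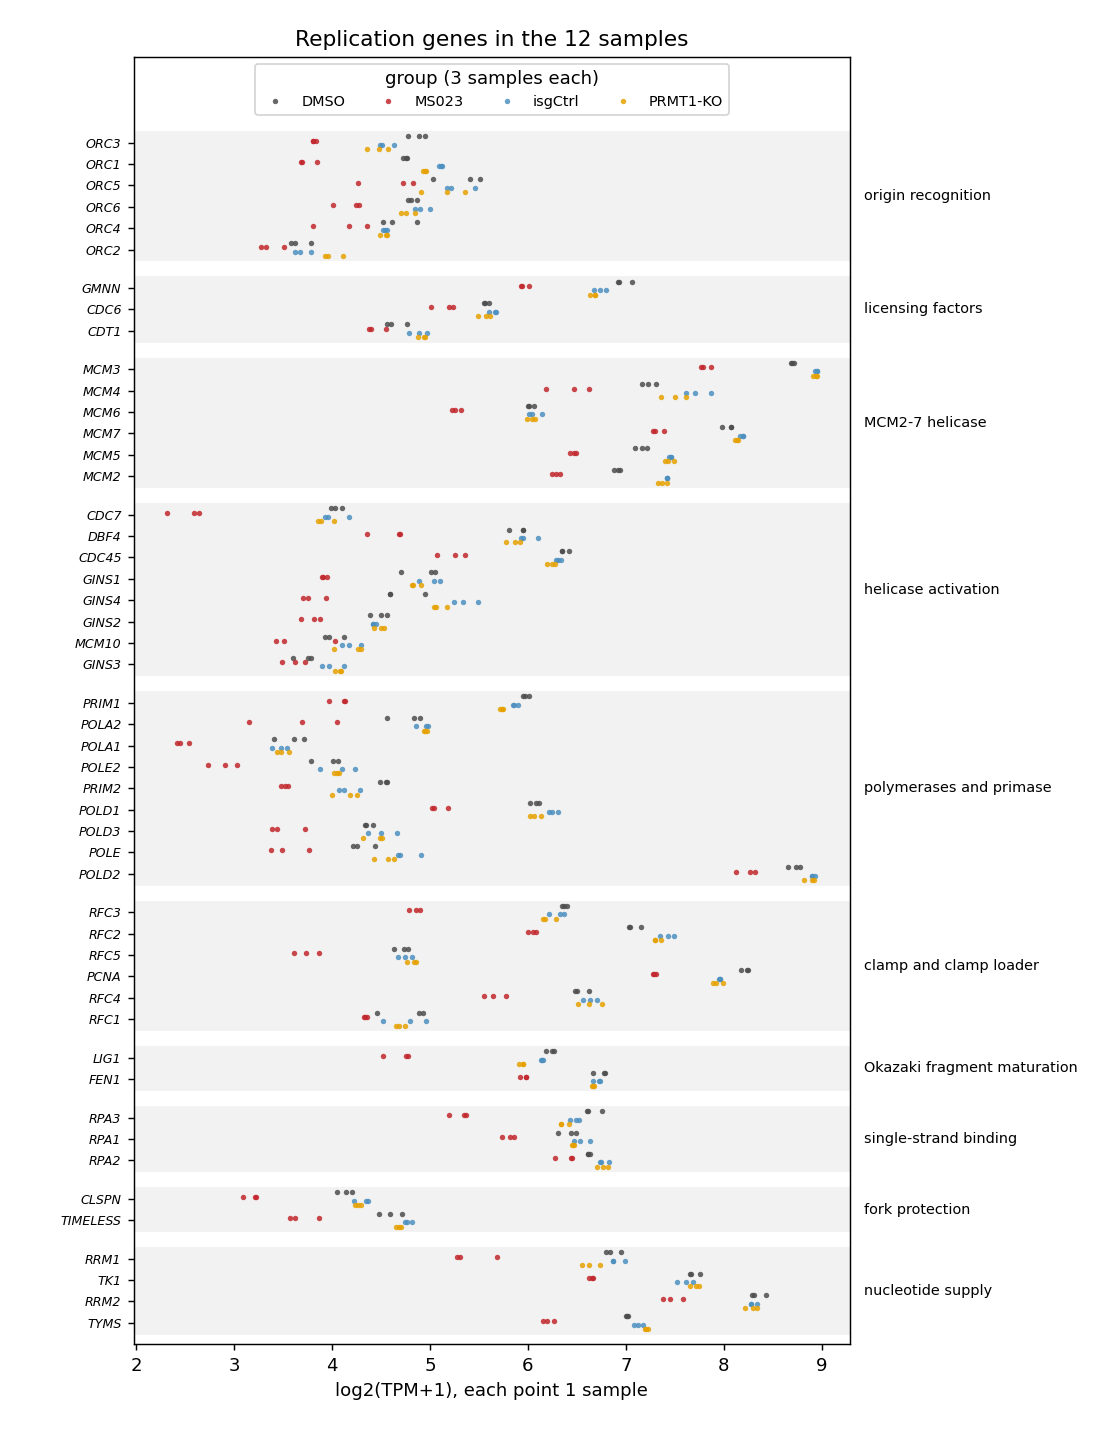
Level of each member in log2(TPM+1) by role class, with 1 point for each of the 12 samples coloured by group. The MS023 points lie left of the DMSO points for 47 of 49 members, against 36.3% of all genes tested. All PRMT1-KO points lie left of all isgCtrl points for 15 members, against 17.6% of all genes tested.

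Markers of dividing cells moved with these genes. All 10 proliferation markers on another list had an adjusted p under 0.05 (limma, Benjamini-Hochberg) and a negative change with MS023, as did 30.4% of all genes tested. All but E2F1 and CCNE1, 8 in number, were called lower, against 19.3% of all genes. The others were MKI67, TOP2A, CCNE2, CCNA2, CCNB1, E2F2, BUB1 and AURKB, and TOP2A is also among the further replisome genes below. Summed TPM of the 10 markers were 609 to 619 in DMSO and 240 to 255 with MS023. The same sums were 654 to 676 TPM with the control guide and 641 to 676 TPM with the PRMT1 guide. Transcripts of mitochondrial genes took 4.91 to 5.0% of TPM in DMSO and 5.62 to 5.83% with MS023. The part of either in the change of the replication genes was not tested.

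Of the 6 genes of the origin recognition complex, 5 fell, with a median log2 fold change of -0.67 over the class. ORC3, a core subunit, was at 29.9, 26.4 and 28.6 TPM in DMSO and at 13.3, 13.0 and 13.0 TPM with MS023. The groups did not overlap. It changed by -1.05 (SE 0.07, limma, Benjamini-Hochberg adjusted p = 1.77e-04). ORC1, whose protein is degraded in S phase, changed by -1.01, ORC6 by -0.64, ORC5 by -0.71 and ORC4 by -0.56. ORC4 and ORC5 lost their calls under median-ratio scaling (-0.44 and -0.58), under quantile normalization (-0.40 and -0.58), with all genes above 0 fitted, without DMSO replicate 1 (-0.46 and -0.66) and without DMSO replicate 2 (-0.58 and -0.61), which left 3 of the 6 called. ORC4 alone lost its call without MS023 replicate 2 (-0.40) or replicate 3 (-0.59). ORC2 was at 12.9, 10.9 and 11.3 TPM in DMSO and at 8.66, 9.03 and 10.4 TPM with MS023. Its change of -0.29 had an adjusted p of 0.045 in limma with Benjamini-Hochberg adjustment and stayed under the fold threshold, so ORC2 was the member of the complex with the smallest change.

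GMNN was the 1 of 3 licensing factors called lower. It was at 120.9, 132.7 and 120.2 TPM in DMSO and at 63.5, 60.2 and 59.9 TPM with MS023, with no overlap, and dropped by 1.01 on the log2 scale (SE 0.07, limma, Benjamini-Hochberg adjusted p = 1.99e-04). CDT1, which geminin binds, was at 22.5, 26.3 and 23.2 TPM in DMSO and at 22.5, 19.8 and 20.1 TPM with MS023. The highest treated sample reached the lowest control to within rounding. Its log2 fold change was -0.20 with a 95% interval of -0.41 to 0.02 (limma, Benjamini-Hochberg adjusted p = 0.113). CDC6 changed by -0.42 with an adjusted p of 0.00648 in limma with Benjamini-Hochberg adjustment, under the fold threshold.

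All 6 subunits of the MCM2-7 helicase fell, within a narrow range from -0.63 to -0.89. MCM3, the highest of them, was at 419.7, 410.4 and 412.5 TPM in DMSO and at 219.8, 216.8 and 232.4 TPM with MS023. Its fall was the largest of the class, at -0.89 (SE 0.06, limma, Benjamini-Hochberg adjusted p = 1.93e-04). MCM2 had the smallest, with 122, 117 and 121 TPM in DMSO, 76.9, 74.8 and 79.2 TPM with MS023, and a log2 fold change of -0.63 (SE 0.06, limma, Benjamini-Hochberg adjusted p = 5.69e-04). MCM4, MCM6, MCM7 and MCM5 lay between them, at -0.81, -0.75, -0.72 and -0.69. The subunits act as a ring of 1 copy each, yet their mRNA levels were far apart, with MCM3 at 6.47 times MCM6 on average in DMSO and 5.94 times with MS023. The summed TPM of the 6 genes were 1126 to 1167 in DMSO and 642 to 704 with MS023.

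**Figure D3:**
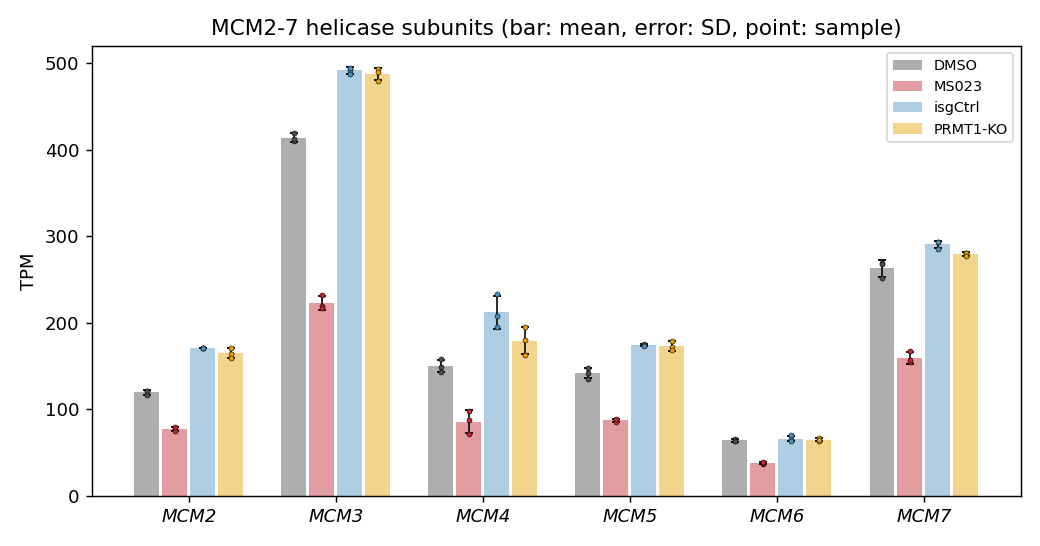
TPM of the MCM2-7 helicase genes in the 4 groups, with bars for the mean of 3 samples, error bars for the SD and a point for each sample. MS023 samples are below DMSO samples for all 6 genes, and for MCM2 the isgCtrl samples, at 170.2 to 170.9 TPM, stand above the DMSO samples, at 117 to 122 TPM.

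Of the 8 genes of helicase activation, 6 fell. CDC7, the catalytic subunit of the kinase that phosphorylates MCM proteins, is named by the study from these samples, so its change is not independent evidence. It was at 15.4, 16.1 and 14.9 TPM in DMSO and at 5.25, 3.97 and 5.03 TPM with MS023, or 30.7% of the DMSO mean. The groups were far apart, and the change was -1.52 (SE 0.10, limma, Benjamini-Hochberg adjusted p = 1.86e-04). DBF4, its activating partner, changed by -1.32 and was called too. CDC45, GINS1, GINS4 and GINS2 changed by -1.15, -1.0, -0.91 and -0.69. GINS3, the fourth subunit of the GINS complex, was at 11.1, 12.5 and 12.8 TPM in DMSO and at 10.3, 11.3 and 12.2 TPM with MS023, and its groups overlapped. Its log2 fold change was -0.10 with a 95% interval of -0.32 to 0.12 (limma, Benjamini-Hochberg adjusted p = 0.386). MCM10 was at 9.80, 10.4 and 15.4 TPM with MS023 and 14.3 to 16.4 TPM in DMSO, so 1 of 3 treated samples lay among the controls. Its change was -0.35 and, without that sample, MS023 replicate 3, -0.54, which was called.

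Every one of the 9 polymerase and primase genes fell. PRIM1, the catalytic primase subunit, was at 63.4, 60.7 and 61.9 TPM in DMSO and at 16.5, 14.7 and 16.6 TPM with MS023, or 25.7% of the DMSO mean. Its change of -1.90 was the largest of all 49 members (SE 0.07, limma, Benjamini-Hochberg adjusted p = 5.52e-05). On the same strand, 362 of the 3309 exon bases of PRIM1 overlap the protein-coding gene ENSG00000285625 and 139 overlap NACA, so part of its reads could be shared. The regulatory primase subunit PRIM2 changed by -1.02, the polymerase alpha subunits POLA1 and POLA2 by -1.11 and -1.14, and the polymerase epsilon subunits POLE and POLE2 by -0.76 and -1.06. POLD1, the catalytic subunit of polymerase delta, changed by -0.99 and POLD3 by -0.85. On the same strand, POLD1 shares 426 exon bases with the protein-coding gene ENSG00000142539. POLA2 shares 2012 exon bases on the same strand with another annotated gene, and its MS023 samples ranged widely, from 7.89 to 15.5 TPM. POLD2, a subunit of polymerase delta with the highest level of all members in DMSO, was at 402, 436 and 426 TPM there and at 306, 278 and 318 TPM with MS023. Its fall of 0.49 on the log2 scale was the smallest of the class and lay just past the threshold (limma, Benjamini-Hochberg adjusted p = 0.00363). It was -0.46 without DMSO replicate 2, -0.48 without DMSO replicate 3, -0.43 without MS023 replicate 2 and -0.36 under median-ratio scaling, each short of the threshold.

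For the clamp and its loader, 5 of 6 genes fell. RFC3 was at 83.6, 81.5 and 80.5 TPM in DMSO and at 28.1, 26.5 and 28.8 TPM with MS023. This was 34.0% of the control mean, and a change of -1.52 (SE 0.06, limma, Benjamini-Hochberg adjusted p = 6.07e-05). RFC2, RFC5 and RFC4 changed by -1.03, -0.98 and -0.88, and PCNA, the clamp itself, by -0.93. RFC1, the large subunit, was at 28.6, 29.4 and 21.0 TPM in DMSO and at 19.5, 19.2 and 19.1 TPM with MS023. One DMSO sample was close to the treated ones, and the change of -0.42 had a 95% interval of -0.74 to -0.10 (limma, Benjamini-Hochberg adjusted p = 0.0417). Without that sample, DMSO replicate 3, the change was -0.57 and was called.

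Both genes of Okazaki fragment maturation fell. LIG1, the ligase that seals the fragments, was at 75.8, 75.0 and 71.9 TPM in DMSO and at 22.0, 26.4 and 26 TPM with MS023, a log2 fold change of -1.55 (SE 0.09, limma, Benjamini-Hochberg adjusted p = 1.13e-04). FEN1, the flap nuclease, was at 109.8, 100.7 and 109 TPM and then at 59.7, 62.0 and 62.0 TPM, and fell by 0.79 on the log2 scale. The groups did not overlap for either gene.

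RPA binds single-stranded DNA as a trimer, and 2 of its 3 genes fell. RPA3 was at 96, 107 and 96.9 TPM in DMSO and at 39.8, 40.2 and 35.5 TPM with MS023, a log2 fold change of -1.36 (SE 0.08, limma, Benjamini-Hochberg adjusted p = 1.39e-04). RPA1 fell by 0.61. RPA2 was at 98.4, 96.7 and 97.2 TPM in DMSO and at 86.3, 76.8 and 85.7 TPM with MS023, and its change of -0.23 (95% interval -0.40 to -0.06, limma, Benjamini-Hochberg adjusted p = 0.0363) stayed under the fold threshold.

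Both fork protection genes, CLSPN and TIMELESS, fell. CLSPN, which relays the checkpoint signal from ATR to CHK1, was at 17.4, 15.6 and 16.7 TPM in DMSO and at 8.25, 7.56 and 8.35 TPM with MS023. TIMELESS was at 25.3, 21.3 and 23.1 TPM and then at 10.9, 11.3 and 13.6 TPM. Their log2 fold changes were -0.96 and -0.91 (limma, Benjamini-Hochberg adjusted p = 2.73e-04 and 0.00117).

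All 4 genes of nucleotide supply fell. RRM1, the large subunit of ribonucleotide reductase, was at 122.8, 113.1 and 110.2 TPM in DMSO and at 37.8, 38.6 and 50.6 TPM with MS023, a log2 fold change of -1.44 (SE 0.13, limma, Benjamini-Hochberg adjusted p = 4.36e-04). RRM2, the small subunit, changed by -0.87, and TK1, which salvages thymidine, by -1.05. TYMS, which makes thymidylate, was at 128, 127 and 129 TPM in DMSO and at 76, 72.1 and 70.3 TPM with MS023, and its fall of 0.81 was the smallest of the class. Exons of TYMS overlap those of ENOSF1 on the opposite strand by 967 bases, and the strand setting of the counting is not given in the sources used here.

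Ratios of partner genes within a sample do not depend on how samples are scaled to each other. They were chosen after the values had been seen and are given with no test. The ratio of RPA2 to RPA3 was 0.90 to 1.03 in DMSO and 1.91 to 2.42 with MS023, that of CDT1 to GMNN 0.186 to 0.198 and 0.329 to 0.354, and that of RRM2 to RRM1 2.53 to 3.11 and 3.44 to 5.04. In each of these pairs the MS023 range lay above the DMSO range, as it did for DBF4 over CDC7 and POLA2 over PRIM1. Not all ratios computed did so. MCM3 over MCM6 was 6.392 to 6.518 in DMSO and lower with MS023, at 5.805 to 6.035. TK1 over TK2 was 53.6 to 78.6 in DMSO and lower with MS023, at 15.5 to 24.65. RRM2 over RRM2B overlapped, at 24.3 to 29.6 in DMSO and 22.0 to 30.8 with MS023. For isgCtrl and PRMT1-KO, RPA2 over RPA3 was 1.16 to 1.26 and 1.29 to 1.36, CDT1 over GMNN was 0.252 to 0.283 and 0.288 to 0.293, and RRM2 over RRM1 was 2.55 to 2.67 and 2.97 to 3.31. For RPA2 over RPA3 and CDT1 over GMNN, both of these groups lay above DMSO and below MS023. In both of these pairs and in RRM2 over RRM1, the PRMT1-KO range lay above the isgCtrl range.

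**Figure D4:**
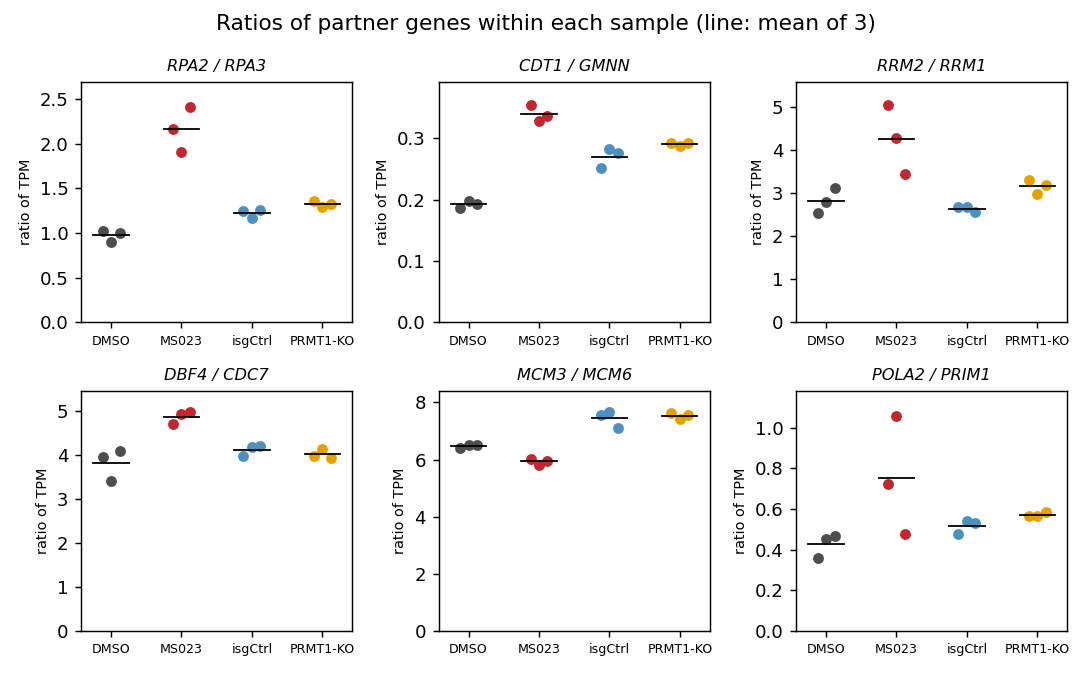
Ratios of TPM of partner genes in each sample, by group, with a line at the mean of 3 samples. RPA2 over RPA3 is about 1 in the DMSO samples (mean 0.976) and 2.16 on average with MS023, and POLA2 over PRIM1 spreads from 0.476 to 1.06 among the MS023 samples.

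In PRMT1-KO against isgCtrl, 0 of the 49 members were called in either direction. Over all 12285 genes tested, 0.366% were called lower and 0.415% higher. No member reached an adjusted p under 0.05, and 8 had an unadjusted p under 0.05 (limma). The median log2 fold change was -0.06 against -0.04 over all genes, with 39 members negative and 10 positive, a split that became 27 negative under median-ratio scaling. Every PRMT1-KO sample lay below every isgCtrl sample for 15 members, against 17.6% of all genes tested. Every PRMT1-KO sample lay above for 2 members, ORC2 and TYMS, against 1119 of all genes tested. The 95% intervals bound the changes: they lay within 0.48 of zero in both directions for 48 of the 49 members, and ORC2 was the exception. The same held for 8764 of the 12285 genes tested. The members added up to 4603 to 4744 TPM in the isgCtrl samples and, in the knockout samples, to 4487 to 4553 TPM.

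The largest differences were in RRM1 and ORC2. RRM1 was at 116, 116 and 127 TPM in isgCtrl and at 97.9, 105 and 92.7 TPM in PRMT1-KO, and every knockout sample was lower. Its log2 fold change was -0.27 with a 95% interval of -0.45 to -0.10 (limma, Benjamini-Hochberg adjusted p = 0.142). ORC2 went the other way, at 12.8, 11.3 and 11.8 TPM in isgCtrl and at 14.3, 14.6 and 16.3 TPM in PRMT1-KO, with a log2 fold change of 0.30 and an interval of 0.12 to 0.49 (limma, Benjamini-Hochberg adjusted p = 0.125). LIG1 had the lowest adjusted p of the members, 0.0995, with a log2 fold change of -0.21 (limma, Benjamini-Hochberg).

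**Figure D5:**
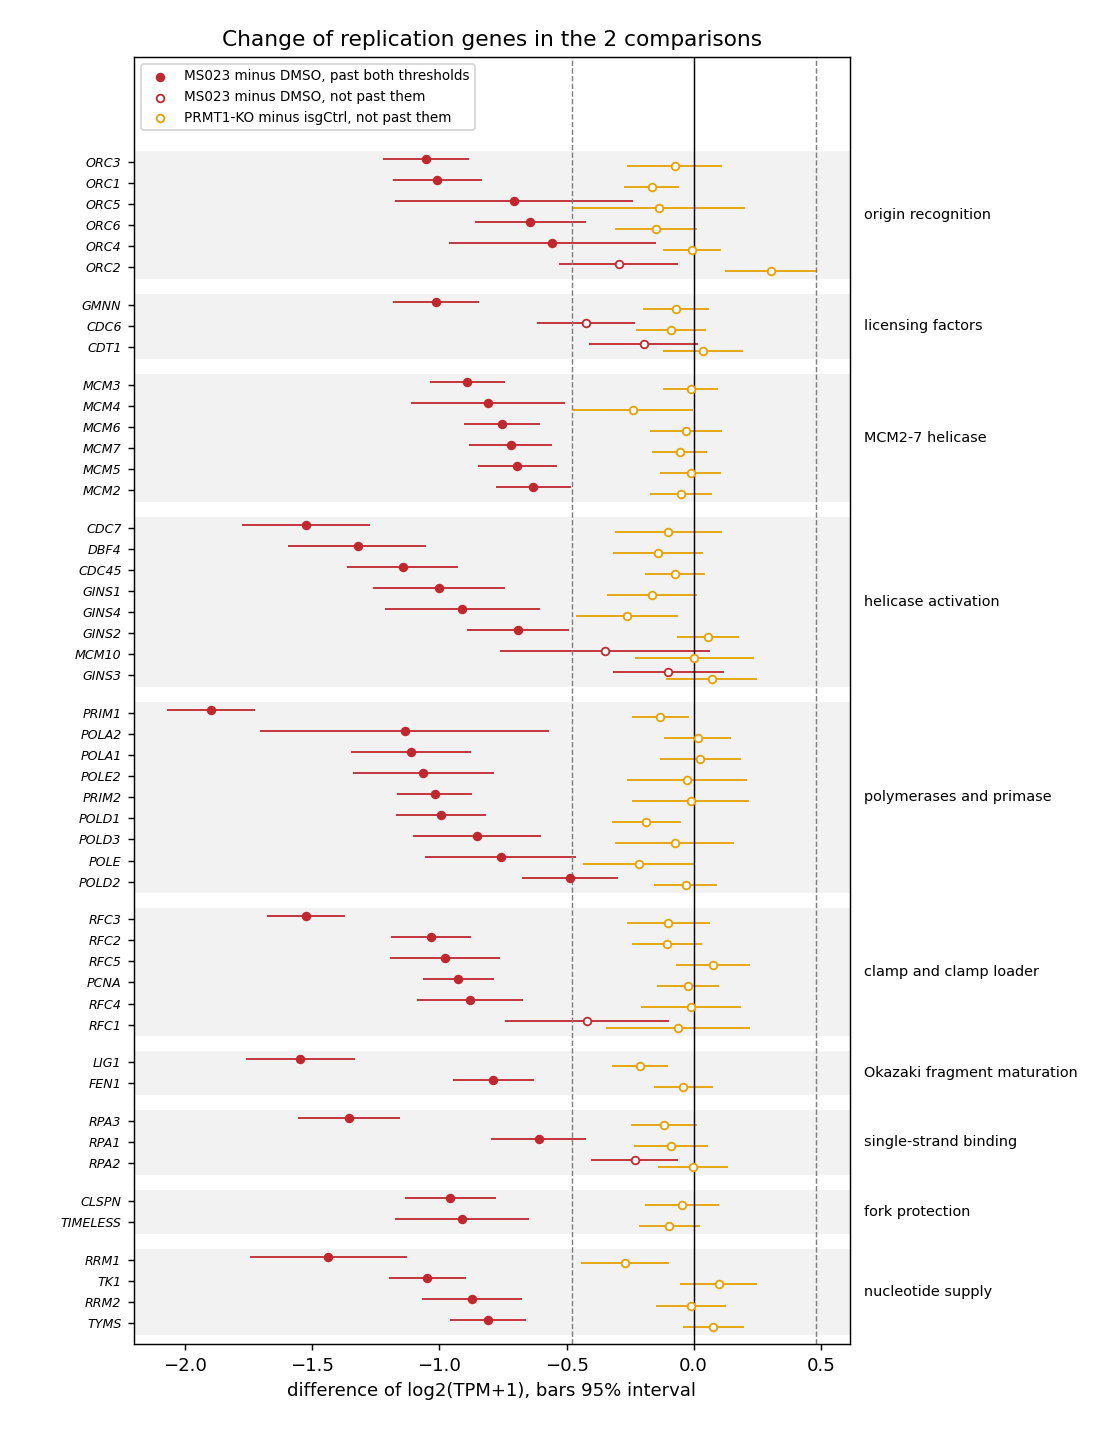
Difference of mean log2(TPM+1) for MS023 minus DMSO and for PRMT1-KO minus isgCtrl, by role class, with 95% intervals from limma; filled points passed both thresholds and dashed lines mark a log2 fold change of 0.48 either way. The 42 filled points are all of MS023, and the PRMT1-KO points lie between -0.27 and 0.30.

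The MS023 effect minus the PRMT1-KO effect was tested in all 12 samples. It had a limma adjusted p under 0.05 for 43 of the 49 members, all lower with MS023, where 21.2% of all 13256 genes tested were lower. Its median was -0.84 over the members. MCM10, GINS3, ORC5, CDT1, RFC1 and RPA2 did not pass. PRIM1 had the largest difference, at -1.77 with a 95% interval of -1.94 to -1.60 (limma, Benjamini-Hochberg adjusted p = 3.73e-07). ORC2 passed at -0.60 and CDC6 at -0.33, although neither gene was called in MS023 or PRMT1-KO. The fold threshold of those calls was not applied to the difference. The inhibitor acts on several enzymes and was given to cells that no source describes as carrying Cas9 or a guide, so enzyme and cell line differ together between the 2 effects and cannot be told apart.

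The control groups were compared as well. In isgCtrl against DMSO, 3 of the 49 members were called higher and 0 lower, where 7.23% of all 12661 genes tested were called higher and 6.7% lower. Calls were thus no more frequent among the members than among all genes. This comparison shares its samples with both others, and the Cas9 and guide vectors, puromycin and doxycycline, which are described for isgCtrl cells only, cannot be told apart. GINS4 was at 23.1, 23.1 and 29.8 TPM in DMSO and at 44.1, 37.0 and 39.3 TPM in isgCtrl, with a log2 fold change of 0.65 (SE 0.12, limma, Benjamini-Hochberg adjusted p = 0.0116). MCM2 stood at 122, 117 and 121 TPM against 170.9, 170.7 and 170.2 TPM and changed by 0.51 (limma, Benjamini-Hochberg adjusted p = 0.0017). MCM4 had 143, 149 and 158 TPM against 207, 195 and 233 TPM and changed by 0.49 (limma, Benjamini-Hochberg adjusted p = 0.00839). The GINS4 and MCM4 levels in PRMT1-KO, 32.0 to 35.2 TPM and 163 to 195 TPM, were below those in isgCtrl and above those in DMSO, and were not called against isgCtrl. Under median-ratio scaling MCM2 and MCM4 changed by 0.46 and 0.44 and were not called. MCM4 also lost its call without DMSO replicate 1 (0.46) or without isgCtrl replicate 3 (0.42). All 6 MCM2-7 genes were higher in isgCtrl than in DMSO on average, by 0.04 to 0.51, as were 7277 of the 12661 genes tested. The median of all genes tested was 0.066. MCM6, at 0.04, lay below that median, with overlapping groups and a 95% interval of -0.10 to 0.19.

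Related genes outside the 49 were taken from lists chosen by role. Of 33 further replisome genes, 21 were called lower and 0 higher with MS023, with a median log2 fold change of -0.85. Over all genes tested, 19.3% were called lower and 11.6% higher. Without the fold threshold, 28 of the 33 had an adjusted p under 0.05 (limma, Benjamini-Hochberg), 27 of them lower. Over all genes, 30.4% were lower in this way. WDHD1, which links polymerase alpha to the helicase, was at 25, 20.2 and 18.8 TPM in DMSO and at 4.94, 4.69 and 5.14 TPM with MS023, a change of -1.91. MCM8, a helicase of recombination, changed by -1.63 and TOP2A, the topoisomerase that unlinks daughter duplexes, by -1.60. Of 34 tested nucleotide synthesis genes on a list of 35, 12 were called lower and 0 higher, with a median of -0.33. Without the fold threshold 22 passed, 21 of them lower. GMPS, a guanylate synthesis enzyme, changed by -1.5. RRM2B, the small subunit used outside S phase, changed by -0.72, and mitochondrial thymidine kinase TK2 stood at 0.44, not called (limma, Benjamini-Hochberg adjusted p = 0.101). In PRMT1-KO, 0 genes of either list were called. In isgCtrl against DMSO, SAMHD1, which breaks down deoxynucleotides, was at 5.82, 7.19 and 4.51 TPM in DMSO and at 1.12, 1.40 and 1.5 TPM in isgCtrl, a change of -1.53.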

How the data were processed

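RNA of 12 JJN3 samples (DMSO, MS023, isgCtrl and PRMT1-KO, 3 each, grouped by their labels) was measured. The authors checked reads with FastQC, trimmed them with Trimmomatic, aligned them with STAR to hg38 with GENCODE annotation, quantified them with Salmon and deposited log2(TPM+1) per gene, used here as it stands. TPM hold no depth, so no count model was run.

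Tests covered genes whose mean log2(TPM+1) exceeded 1 in at least 1 group of the pair, with limma 3.58.1 in R 4.3.3 (eBayes without trend) on the 6 samples of a comparison, and the difference of effects on all 12. P-values were Benjamini-Hochberg adjusted over all genes tested, and the code was tested on simulated data. All members are named, with values per sample for the largest and smallest MS023 change in each role class, for members called in either other comparison and for CDC7. Of the other lists, the 2 largest falls and RRM2B, TK2 and TOP2A are named, and 1 further gene of this rule is not reported here. Members and lists were chosen with earlier results of these data known. GENCODE 44 on GRCh38 gave exon overlaps: 23 members overlap another gene and 14 another protein-coding gene. The authors quantified with an earlier GENCODE release. RefSeq gave the promoters. Alternatives were other filters, a pseudocount of 0.1, scalings, eBayes with trend, all 12 samples in one fit, fold thresholds, a replicate block and each replicate left out.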

Additional observations from a re-analysis of the deposited data

Results flagged for a closer look

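The effects of MS023 and of PRMT1-KO differed for 43 of the 49 members, by the limma test of the difference itself at an adjusted p (Benjamini-Hochberg) under 0.05, and this is what marked the results here. Over all 13256 genes tested, 4719 differed by the same test, 2816 of them lower with MS023. Values follow for those members chosen for full values that passed, which are only part of the 43. In log2 units, the difference (MS023 effect minus PRMT1-KO effect) was -0.88 for MCM3, -0.58 for MCM2, -1.43 for CDC7, -0.98 for ORC3, -0.60 for ORC2, -0.94 for GMNN, -1.77 for PRIM1, -0.46 for POLD2, -1.43 for RFC3. It was -1.34 for LIG1, -0.75 for FEN1, -1.24 for RPA3, -1.17 for RRM1, -0.89 for TYMS, -0.91 for CLSPN, -0.81 for TIMELESS, -0.65 for GINS4 and -0.57 for MCM4. Groups of 3 samples were too small to mark single samples as far from the others.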

How the results depend on the processing

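The number of reads behind a low TPM value is unknown. With MS023 the members called lower were 39 under median-ratio scaling and quantile normalization, 40 with all genes above 0 fitted, and 18 with an absolute log2 fold change above 1. Over all genes tested, 14.5% and 15% were called lower under median-ratio scaling and quantile normalization. The shares were 7.82% with all genes above 0 fitted and 4.79% with an absolute log2 fold change above 1. The median of the members was -0.77 and -0.79 under median-ratio scaling and quantile normalization. In PRMT1-KO the median was -0.013 and -0.022 under these scalings, with 0 members called in any alternative and, with eBayes with trend, a lowest adjusted p of 0.0315 (limma, Benjamini-Hochberg). In isgCtrl against DMSO the members called higher were 1 under median-ratio scaling, 11 with no fold change threshold (and 4 lower), and 0 above 1, and the median was 0.014 under quantile normalization. With no fold change threshold, 2727 of all 12661 genes tested were higher and 1646 lower. Above 1, 55 of them were higher, and under median-ratio scaling 669 of 12572 were. The difference of effects exceeded 1 for 14 members, and its count over all genes is not reported here. The cause of these shifts was not tested.

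Leaving out each replicate in turn gave 39 to 42 members called lower with MS023, with medians of -0.92 to -0.85, and lost ORC4, ORC5 or POLD2 or gained RFC1 (without DMSO replicate 3) or MCM10 (without MS023 replicate 3). It gave 0 members called in PRMT1-KO, with medians of -0.07 to -0.04. It gave 3 to 4 called higher in isgCtrl against DMSO, with medians of 0.07 to 0.12, where MCM4 was lost without DMSO replicate 1 or isgCtrl replicate 3. POLE, at 0.46 with all samples and not called, was gained without DMSO replicate 1 (0.53), isgCtrl replicate 2 (0.50) or isgCtrl replicate 3 (0.49). The count of members with different effects was 40 to 44.

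Replicate numbers do not pair the samples by any label, and same-numbered samples had correlations of -0.23 to 0.10 between their deviations. With the replicate number as a block, 42 members were called lower with MS023, 0 in PRMT1-KO, where over all genes 0 were called, 3 higher in isgCtrl against DMSO, and the effects differed for 44. No named member changed sign while called. Of the named members' alternative values with MS023, 334 kept their status, whether called or not called. A further 14 lost a call and 4 gained one.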
